A study of Saccharomyces cerevisiae with 24 samples.

Results

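The CDP-diacylglycerol branch of phospholipid synthesis was followed in budding yeast through genes chosen by their symbols, 9 of 5449 genes tested. Of these, 8 are described: CDS1, CHO1, PSD1, PSD2, CHO2, OPI3, PGS1 and CRD1. Each was represented by 1 probe set on the array, so no choice between probe sets was needed. RNA came from steady-state chemostats on minimal medium, continuous cultures in which a chosen nutrient is kept limiting. The 24 arrays formed 8 groups of 3, combining the reference strain or the snf1 mutant, carbon (C) or nitrogen (N) limitation, and a low or a high level of inositol-choline. All groups shared the minimal medium. The sources used here give neither the strain background, the snf1 allele and the number of mutant clones, nor the amounts of inositol and choline. An array reads a whole culture, so less RNA in every cell and fewer cells holding it cannot be told apart. Nothing in the labels says that replicates came from separate cultures, so p-values measure the spread between these arrays, which may be technical.

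In this branch phosphatidate is activated to CDP-diacylglycerol, from which yeast builds phosphatidylserine and the mitochondrial lipids phosphatidylglycerol and cardiolipin. Phosphatidylserine is decarboxylated to phosphatidylethanolamine, and methylation of that lipid gives phosphatidylcholine without any choline from outside. Many genes of the branch are classically activated by the Ino2-Ino4 factor when inositol is scarce and shut down through the repressor Opi1 when inositol is supplied, choline adding to the effect of inositol. SNF1 encodes the kinase subunit of yeast's counterpart of AMP-activated protein kinase, which inactivates acetyl-CoA carboxylase, the entry enzyme of fatty acid synthesis.

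Values are deposited log2 expression values, and differences are log2 differences between group means. Errors after ± are standard errors from limma with n = 3 arrays per group. They use a spread per gene pooled over all groups, although groups varied unequally. For PSD1 the standard deviation was 0.025 in the N-limited reference at the low level and 0.026 in the C-limited mutant at the high level. It was 0.38 and 0.42 in the N-limited reference and mutant at the high level. Errors and p-values can thus be too small where the compared groups varied more than the pooled spread, and too large where they varied less. The threshold for calling a gene higher or lower was an adjusted p (Benjamini-Hochberg) under 0.05, the adjustment covering 5449 genes. SNF1 lay between 4.95 and 5.02 on the 12 mutant arrays, below the level of 5.59 that marks dim genes, and between 7.09 and 8.47 on the 12 reference arrays. For 6 mutant arrays the title says N limitation and the description C limitation. DAL5, a nitrogen-repressed gene, lay between 10.85 and 11.72 on these and between 6.83 and 7.13 on the C-limited arrays, and the title was followed. For 7 control genes the signal at the 3' end minus that at the 5' end was taken, a difference that rises when RNA is degraded or incompletely copied. It was 0.74 to 0.93 on the 12 low-level arrays and 0.91 to 2.74 on the 12 high-level ones. It was largest on replicate 1 of both N-limited groups at the high level (2.74 in the reference, 2.67 in the mutant). Level and signal loss thus moved together, and many results below are also given without these 2 arrays or with the signal as a covariate. Those fits also called more of all genes, for example 48.1% and 45.1% in the response of the C-limited reference to inositol-choline.

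For 6 of the 8 genes the highest group mean was that of the N-limited reference at low inositol-choline. PSD2 was instead highest in the C-limited mutant at the high level and CHO2 in the N-limited mutant at the low level. OPI3 had the widest span, with its highest group mean 3.02-fold above its lowest, followed by PSD1 at 2.91-fold, CHO1 at 2.45-fold and CDS1 at 2.40-fold. The span was 1.39-fold for PSD2 and CRD1 and 1.34-fold for PGS1. Among all genes tested 94.4% had a narrower span of group means than OPI3, 94.0% than PSD1, 91.0% than CHO1 and 84.5% than CHO2, but 40.4% than PSD2, 40.2% than CRD1 and 32.5% than PGS1. All 8 genes lay above the dim level on every array, the lowest value being 6.47 for CRD1.

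**Figure D1:**
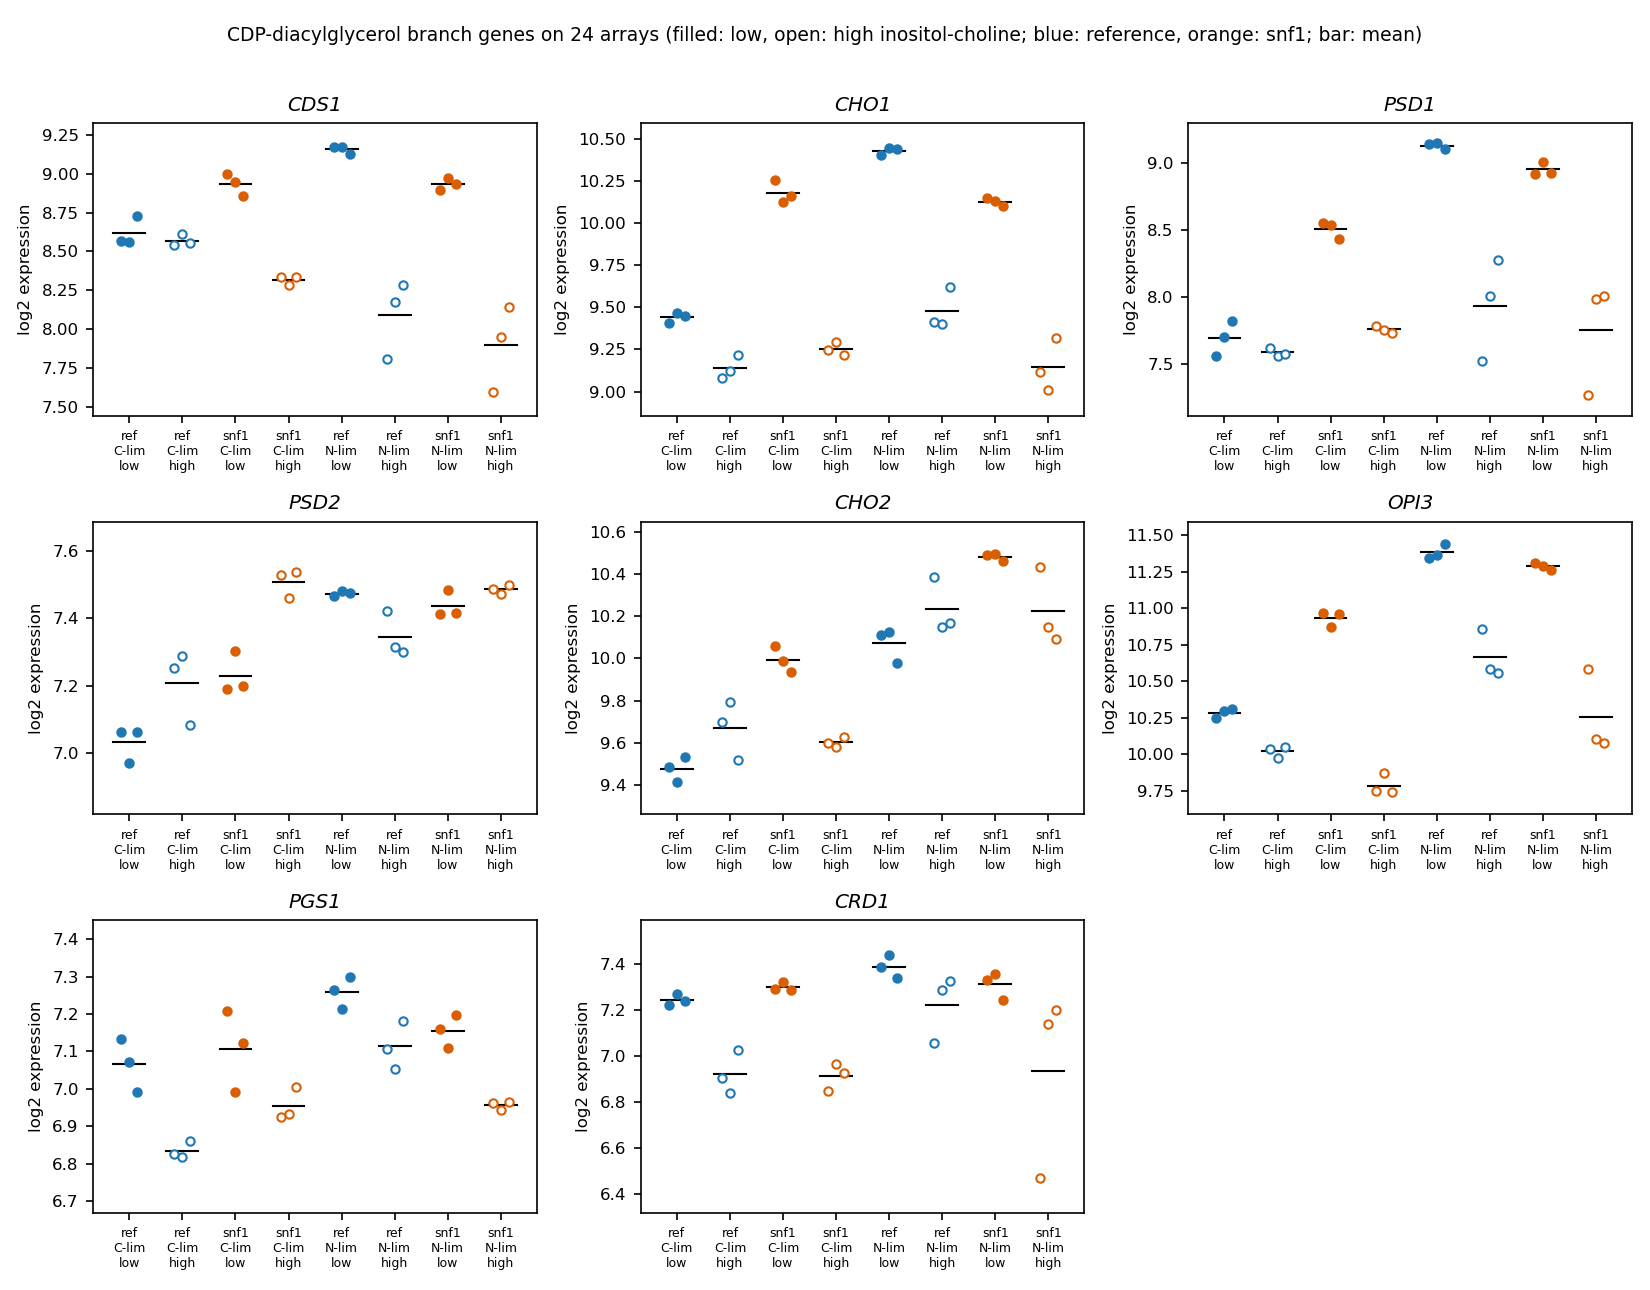
Log2 expression of the 8 genes (y axis, a scale per panel) on each of the 24 arrays, by group (x axis), with filled points for low and open points for high inositol-choline, blue for the reference, orange for snf1 and a bar at the group mean. CDS1, CHO1, PSD1 and OPI3 are high in the N-limited low groups and lower at the high level. In the mutant at the low level CDS1 (means 8.93 and 8.93) and CHO1 (10.18 and 10.13) are about as high under C as under N limitation.

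The first comparison asked how the branch responds to inositol-choline in each strain and limitation. In the C-limited reference CHO1 and PGS1 fell, 2 of 8 genes against 6.96% of all genes called lower, and PSD2 rose, 1 of 8 against 7.85% called higher. Without the 2 arrays, and with the covariate, 6 of 8 were called there, CHO2, OPI3 and CRD1 joining them. In the N-limited reference CDS1, CHO1, PSD1, OPI3 and PGS1 fell, 5 of 8 against 14.9% of all genes. In the C-limited mutant 7 of 8 fell against 13.2%, namely those 5 with CHO2 and CRD1, and PSD2 rose, 1 of 8 against 10.2%. In the N-limited mutant the same 7 fell, against 17.7% of all genes called lower. The median difference of the 8 was -0.17, -0.44, -0.50 and -0.68 in the order given, beside -0.02, 0.03, -0.01 and 0.02 over all genes.

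CDS1 (YBR029C) encodes a CDP-diacylglycerol synthase, an enzyme that makes the activated lipid of the branch. In the N-limited reference it was at 9.18, 9.17 and 9.13 at the low level and at 7.81, 8.17 and 8.29 at the high level. The mutant under N limitation gave 8.89, 8.97 and 8.93 at the low and 7.59, 7.95 and 8.14 at the high level. Low and high arrays did not overlap in either strain, and the differences were -1.07 ± 0.11 (adjusted p = 1.7e-06) and -1.04 ± 0.11 (adjusted p = 1.55e-06). Under C limitation the mutant went from 8.86 or more on each array (mean 8.93) to 8.33, 8.29 and 8.33, a difference of -0.61 ± 0.11 (adjusted p = 0.000472). The C-limited reference lay at 8.56, 8.56 and 8.73 at the low and at 8.54, 8.61 and 8.55 at the high level, overlapping throughout, with a difference of -0.05 (95% interval -0.28 to 0.18).

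CHO1 (YER026C) encodes phosphatidylserine synthase, which commits CDP-diacylglycerol to the route towards phosphatidylethanolamine and phosphatidylcholine. It was at 10.40, 10.44 and 10.44 in the N-limited reference at the low level and at 9.41, 9.40 and 9.62 at the high level. The N-limited mutant had 10.15, 10.13 and 10.10 at the low and 9.12, 9.01 and 9.32 at the high level. In the C-limited mutant the values were 10.26, 10.12 and 10.16 against 9.25, 9.30 and 9.21. The falls in these 3 settings were -0.95, -0.98 and -0.93, each ± 0.07, with adjusted p of 1.23e-08, 6.46e-09 and 9.8e-09. In the C-limited reference CHO1 started from 9.41, 9.47 and 9.45 and reached 9.08, 9.12 and 9.21, a fall by 0.30 ± 0.07 (adjusted p = 0.00744) in which the arrays did not overlap. CHO1 was thus called lower in all 4 settings, as was PGS1.

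Of the phosphatidylserine decarboxylase genes, PSD1 (YNL169C) encodes the enzyme of the mitochondrial inner membrane and PSD2 (YGR170W) that of the Golgi, vacuole and endosomal membranes. PSD1 in the N-limited reference went from 9.14, 9.15 and 9.10 at the low level to 7.52, 8.01 and 8.28 at the high level, and in the N-limited mutant from 8.92, 9.01 and 8.93 to 7.27, 7.99 and 8.01. The falls were -1.19 ± 0.16 (adjusted p = 3.42e-05) and -1.20 ± 0.16 (adjusted p = 1.8e-05), and low and high arrays were fully apart. The C-limited mutant had 8.55, 8.54 and 8.43 at the low and 7.79, 7.76 and 7.73 at the high level, a fall by 0.75 ± 0.16 (adjusted p = 0.00222). In the C-limited reference PSD1 was at 7.56, 7.70 and 7.82 and then at 7.62, 7.57 and 7.58, overlapping, with a difference of -0.10 (95% interval -0.44 to 0.23).

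With all 24 arrays and no covariate in the fit PSD2 was not called lower in any of these settings. Under C limitation it rose, in the mutant from 7.19, 7.30 and 7.20 to 7.53, 7.46 and 7.54 (0.28 ± 0.05, adjusted p = 0.000817). The reference went from 7.06, 6.97 and 7.06 to 7.25, 7.29 and 7.08 (0.18 ± 0.05, adjusted p = 0.0322). That call rested on few arrays: it was lost without replicate 1 or 2 of the low group or replicate 1 or 2 of the high group, with an adjusted p of up to 0.192. Under N limitation the differences were -0.13 in the reference (95% interval -0.24 to -0.02, adjusted p = 0.0743) and 0.05 in the mutant (95% interval -0.06 to 0.16, adjusted p = 0.499). The difference in the reference was -0.17 and called without the 2 arrays of the largest 3' minus 5' signal (adjusted p = 0.0178) and with that signal as a covariate (adjusted p = 0.0335).

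CHO2 (YGR157W) and OPI3 (YJR073C) encode the methyltransferases that turn phosphatidylethanolamine into phosphatidylcholine, CHO2 taking the first step and OPI3 the later ones. OPI3 lay at 11.34, 11.36 and 11.44 in the N-limited reference at the low level and at 10.86, 10.58 and 10.55 at the high level, a fall by 0.72 ± 0.10 (adjusted p = 4.33e-05). In the mutant it went under N limitation from 11.31, 11.29 and 11.26 to 10.59, 10.11 and 10.08 and under C limitation from 10.97, 10.87 and 10.96 to 9.75, 9.87 and 9.74. These falls were the deepest of OPI3, -1.03 ± 0.10 (adjusted p = 4.09e-07) and -1.15 ± 0.10 (adjusted p = 6.87e-08). In the C-limited reference OPI3 was at 10.25, 10.29 and 10.31 and then at 10.04, 9.98 and 10.05. The arrays did not overlap there either, yet the difference of -0.26 ± 0.10 was not called (adjusted p = 0.0798). It was called with only those 6 arrays in the fit (adjusted p = 0.00797), which called 34.2% of all genes. It was also called without the 2 arrays of the largest 3' minus 5' signal (adjusted p = 7.94e-05).

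CHO2 differed in its calls between the fits. In the mutant it fell under C limitation, from 10.06, 9.99 and 9.93 to 9.60, 9.58 and 9.63 (-0.39 ± 0.08, adjusted p = 0.00214), and under N limitation, from 10.49, 10.50 and 10.46 to 10.43, 10.15 and 10.09 (-0.26 ± 0.08, adjusted p = 0.0211). The second call was lost on the 6 arrays alone (adjusted p = 0.138), after quantile normalization (adjusted p = 0.179) and without replicate 1 or 2 of the low or replicate 2 or 3 of the high group (adjusted p of up to 0.0902). In the reference it was not called with all 24 arrays, with 9.49, 9.41 and 9.53 against 9.70, 9.79 and 9.52 under C limitation (0.19, 95% interval 0.02 to 0.37). That rise was called without the 2 arrays (adjusted p = 0.00886), with the covariate (0.16, adjusted p = 0.0351) and without replicate 3 of the high group (0.27, adjusted p = 0.041). Under N limitation the reference had 10.11, 10.13 and 9.98 at the low and 10.38, 10.15 and 10.17 at the high level (0.16, 95% interval -0.01 to 0.34). After quantile normalization that N-limited difference was 0.27 and called (adjusted p = 0.0484).

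PGS1 (YCL004W) encodes phosphatidylglycerophosphate synthase and CRD1 (YDL142C) cardiolipin synthase, which act in the mitochondrial inner membrane. Their changes were small. PGS1 fell by 0.23 ± 0.05 in the C-limited reference (adjusted p = 0.00825), from 6.99 to 7.13 over the low arrays and 6.82 to 6.86 over the high ones, and by 0.20 ± 0.05 in the N-limited mutant (adjusted p = 0.00716). The latter call was lost on the 6 arrays alone (adjusted p = 0.0706). Its calls in the N-limited reference (-0.15, adjusted p = 0.0453) and the C-limited mutant (-0.15, adjusted p = 0.0461) were lost in 16 and 15 of the 24 fits that left out 1 array, with an adjusted p of up to 0.143 and 0.233. The first of these was also lost without the 2 arrays (adjusted p = 0.0516) and with the covariate (adjusted p = 0.105). CRD1 fell by 0.39 ± 0.12 in the C-limited mutant (adjusted p = 0.0303), from 7.29, 7.32 and 7.29 to 6.85, 6.97 and 6.93, without overlap. That call did not survive leaving out any of its 6 arrays (adjusted p of up to 0.101), but it was kept on the 6 arrays alone. In the C-limited reference CRD1 went from 7.22, 7.27 and 7.24 to 6.90, 6.84 and 7.03, without overlap (-0.32, adjusted p = 0.0906, and 0.00784 on those 6 arrays alone). It was called without the 2 arrays (adjusted p = 4.07e-05) and with the covariate (-0.27, adjusted p = 0.00637). In the N-limited mutant CRD1 went from 7.33, 7.36 and 7.24 to 6.47, 7.14 and 7.20 (-0.37, adjusted p = 0.0245). This difference was -0.14 without the 2 arrays of the largest 3' minus 5' signal (adjusted p = 0.0317) and -0.06 with that signal as a covariate (adjusted p = 0.578), and the call was lost without replicate 1 or 2 of the low or replicate 1 of the high group (adjusted p of up to 0.139).

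**Figure D2:**
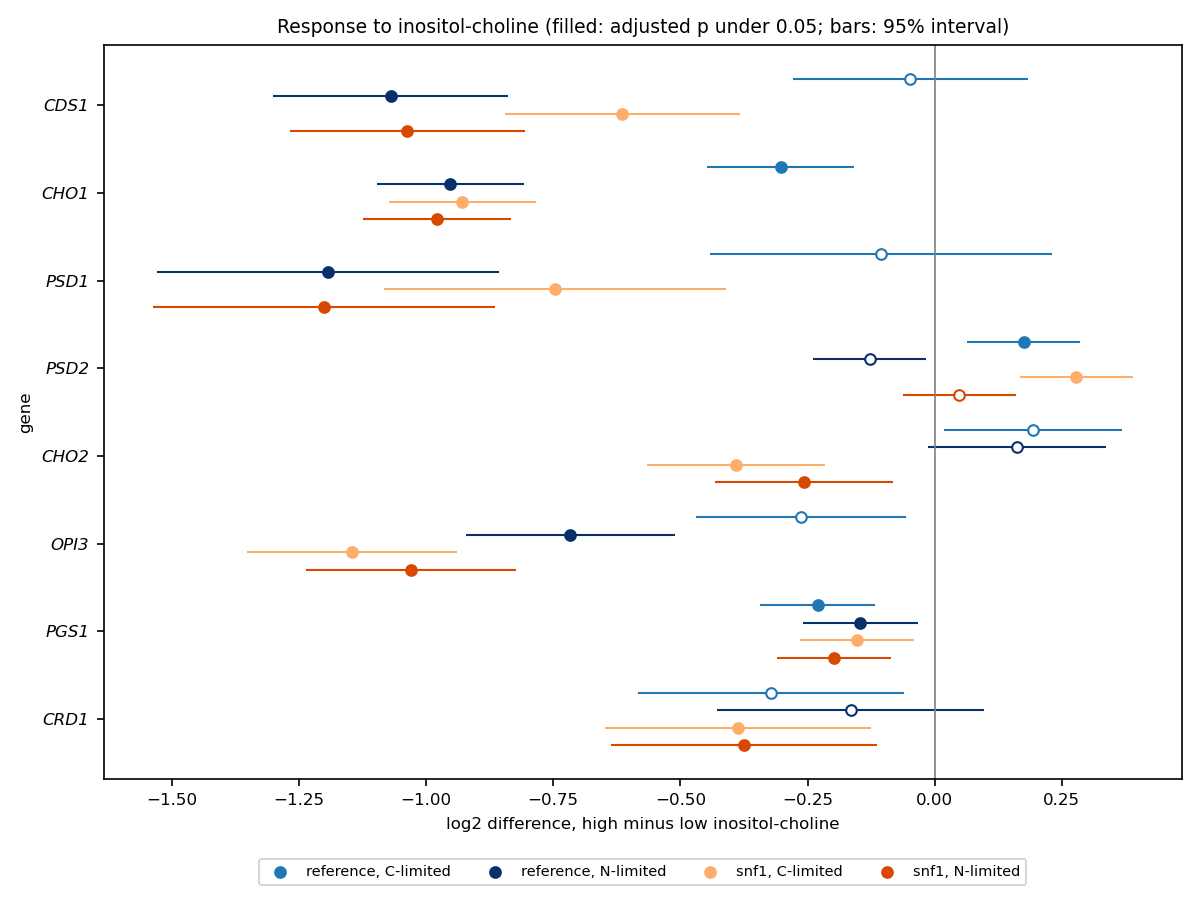
Log2 difference, high minus low inositol-choline (x axis), of each gene (y axis) in the 4 settings of strain and limitation, with bars for the 95% interval and filled points where the adjusted p was under 0.05. The points of CDS1, CHO1, PSD1 and OPI3 lie near -1 in the N-limited settings and the C-limited mutant, between -1.20 and -0.61, and nearer to 0 in the C-limited reference.

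On the N-limited arrays at the high level the members did not vary alike from replicate to replicate. In the reference the 3' minus 5' signal was 2.74, 1.55 and 1.12 on replicates 1 to 3, and in the mutant 2.67, 1.68 and 1.23. On replicate 1 of both strains CDS1, PSD1 and CRD1 had their lowest value of the group and CHO2 and OPI3 their highest. CHO1 had its lowest value on replicate 2 in both strains. Without these 2 arrays the N-limited falls were -0.93 and -0.89 for CDS1, -0.92 and -0.96 for CHO1, -0.99 and -0.96 for PSD1 and -0.81 and -1.19 for OPI3 (reference and mutant), all still called. The 6-array fits with the replicate number as a block, in which the numbers do not pair these arrays, called none of the 8 genes in either N-limited response, with adjusted p of 0.0588 and 0.0567 for CHO1. Those fits called 14 and 10 of all 5449 genes. At an unadjusted p under 0.05 the fit of all 24 arrays held 6 and 7 of the 8 in those responses, beside 43.3% and 46.7% of all genes.

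**Figure D3:**
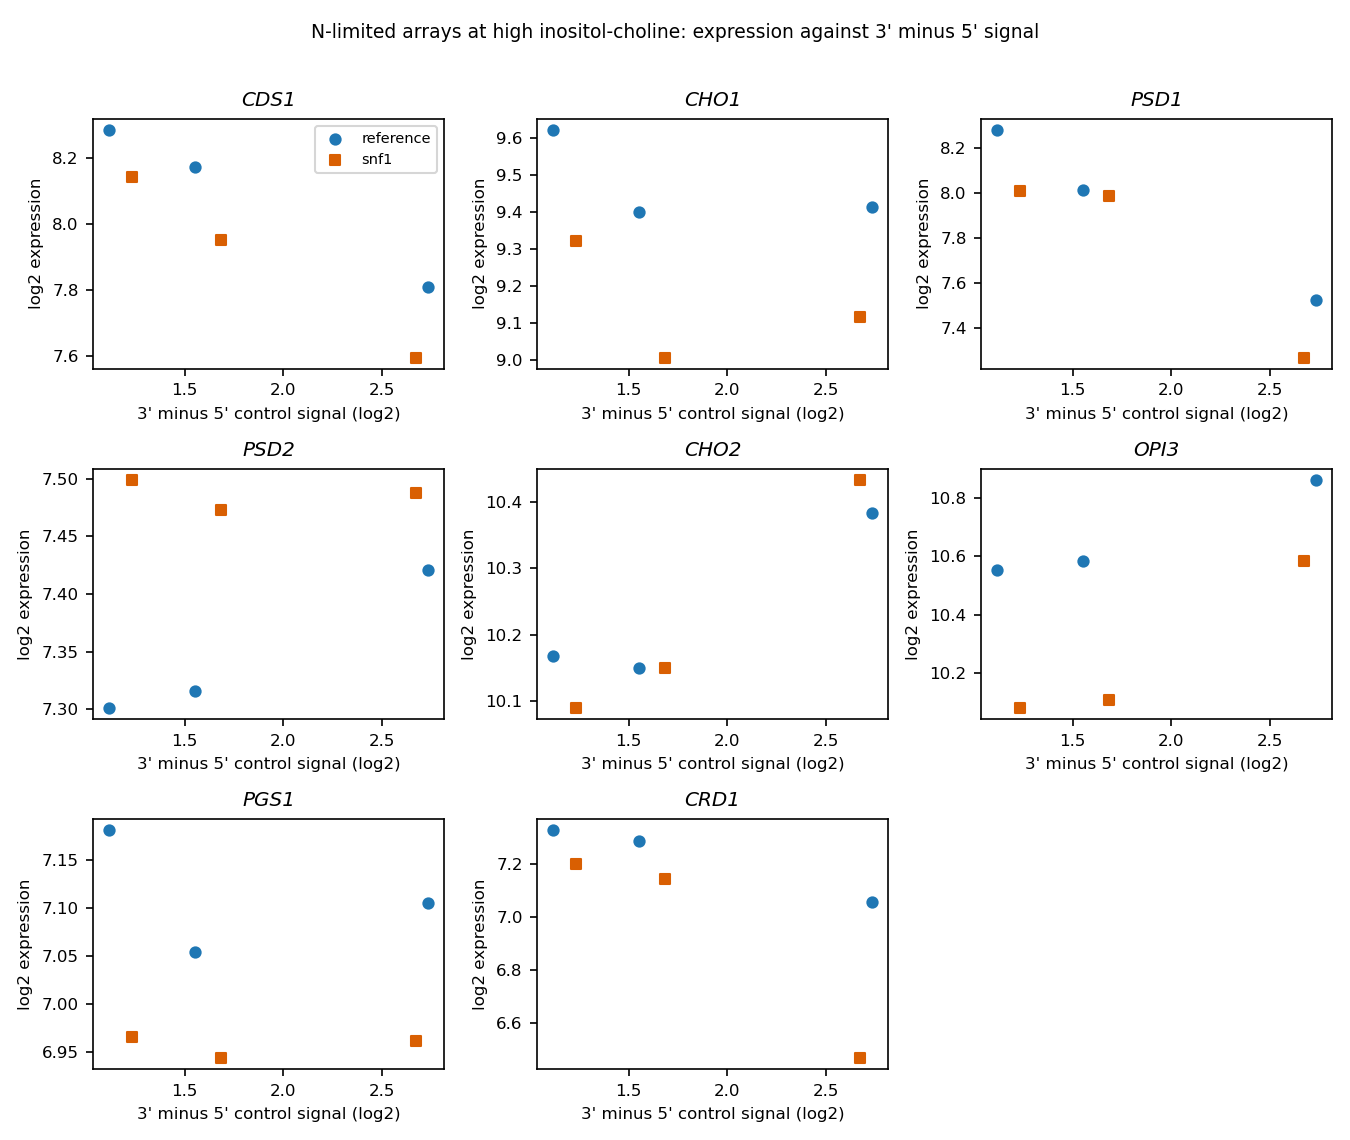
Log2 expression (y axis, a scale per panel) of each gene against the 3' minus 5' signal (x axis, log2) on the 6 N-limited arrays at high inositol-choline, with circles for the reference and squares for snf1. The arrays with the largest signal, 2.74 and 2.67, hold the lowest PSD1, 7.52 and 7.27, and the highest OPI3 of their group, 10.86 and 10.59.

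The second comparison asked what the loss of SNF1 does to the branch. Its clearest place was C limitation at the low level, where 6 of 8 genes rose against 20.2% of all genes called higher. Under C limitation at the high level PSD2 was the member that rose, 1 of 8 against 18.0%. Under N limitation at the low level CHO2 rose, 1 of 8 against 4.72%, and CHO1 fell, 1 of 8 against 5.01%, and at the high level CHO1 and OPI3 fell, 2 of 8 against 1.98% called lower. The median difference of the 8 was 0.42, 0.05, -0.10 and -0.19 in that order, beside 0.05, 0.03, 0.00 and -0.01 over all genes.

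At low inositol-choline under C limitation the rises were of similar size for PSD1 (0.81 ± 0.16, adjusted p = 0.000494) and CHO1 (0.74 ± 0.07, adjusted p = 5.35e-08). OPI3 rose by 0.65 ± 0.10 and CHO2 by 0.52 ± 0.08, which put both methyltransferase genes at 1.57-fold and 1.43-fold the reference. PSD2 rose by 0.20 ± 0.05. The arrays of the mutant all lay above those of the reference for 7 of the 8 genes, PGS1 being the exception. This held for 39.8% of all genes. CDS1 rose by 0.32 ± 0.11 (adjusted p = 0.032), a call lost without replicate 1 or 2 of either group (adjusted p of up to 0.105) and after centring on the median (adjusted p = 0.0545). PGS1 and CRD1, the genes of the cardiolipin arm, were at 0.04 (95% interval -0.07 to 0.15) and 0.06 (95% interval -0.21 to 0.32).

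At the high level under C limitation PSD2 rose by 0.30 ± 0.05 (adjusted p = 0.000162). CHO1 and PSD1, which had risen at the low level, were at 0.11 (95% interval -0.03 to 0.26) and 0.17 (95% interval -0.17 to 0.51). CDS1 and OPI3 lay below the reference, at -0.25 (adjusted p = 0.093) and -0.24 (adjusted p = 0.0745), without overlap between the arrays. Fitted on the 6 arrays compared, 5 of the 8 were called, CDS1 (adjusted p = 0.000338) and OPI3 (adjusted p = 0.00141) as falls and PSD1 (adjusted p = 0.00376) and PGS1 (adjusted p = 0.0278) as rises next to PSD2. That fit called 58.5% of all genes in either direction.

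Under N limitation the strains were closer. At the low level CHO2 was 1.33-fold higher in the mutant (0.41 ± 0.08, adjusted p = 0.00242), with 10.46 to 10.50 against 9.98 to 10.13, and CHO1 was lower by -0.30 ± 0.07 (adjusted p = 0.00612). On the 6 arrays alone 6 of the 8 were called, and the same 6 with the replicate number, taken to pair these arrays, as a block. CHO2 was higher, and CHO1, CDS1 (adjusted p = 6.74e-05), PSD1 (adjusted p = 0.000465), PGS1 (adjusted p = 0.0118) and OPI3 (adjusted p = 0.0369) lower. The p-values are those with the block. These fits called 45.9% and 51.0% of all genes. CDS1 was also called without the 2 arrays of the largest 3' minus 5' signal (-0.23, adjusted p = 0.00319) and with that signal as a covariate (-0.20, adjusted p = 0.00283), and PSD1 in the former (-0.18, adjusted p = 0.0357). At the high level CHO1 was again lower, by -0.33 ± 0.07 (adjusted p = 0.00745), and OPI3 by -0.41 ± 0.10 (adjusted p = 0.0207). Neither passed on the 6 arrays alone without a block, where the adjusted p was 0.9996 for each. Both passed with the replicate number as a block, which was taken to pair these arrays from their correlation. Same-numbered arrays there also had a like 3' minus 5' signal (2.74 and 2.67, 1.55 and 1.68, 1.12 and 1.23). OPI3 was also lost without replicate 1 of the reference or replicate 2 or 3 of the mutant (adjusted p of up to 0.105) and after quantile normalization (adjusted p = 0.0691).

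**Figure D4:**
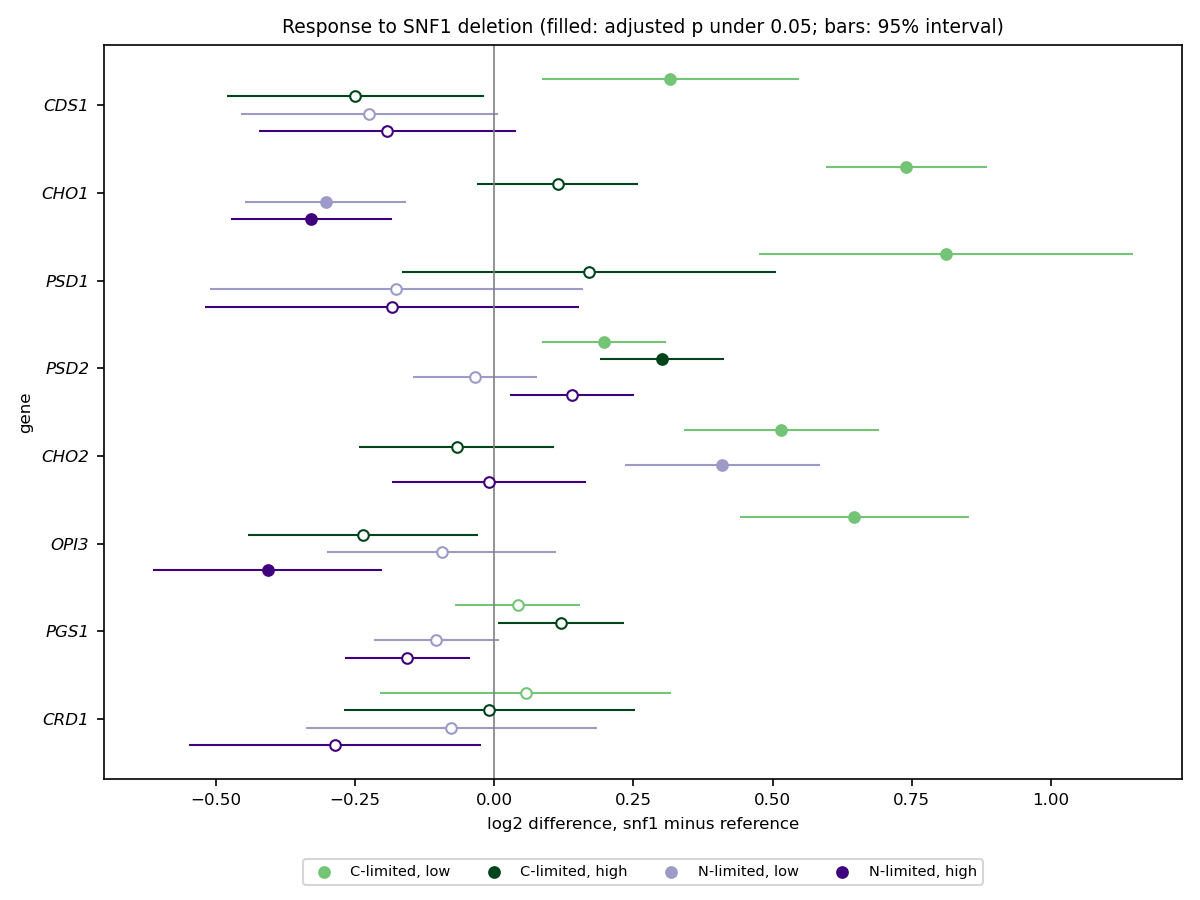
Log2 difference, snf1 minus reference (x axis), of each gene (y axis) in the 4 media, with bars for the 95% interval and filled points where the adjusted p was under 0.05. Under C limitation at the low level 6 genes lie to the right of 0 and are called, PSD1 farthest at 0.81.

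The third comparison set N against C limitation. In the reference at low inositol-choline 7 of 8 genes rose under N limitation, against 25.1% of all genes called higher. At the high level 5 of 8 rose against 31.4%, and CDS1 fell, 1 of 8 against 20.9%. In the mutant at the low level PSD1, PSD2, CHO2 and OPI3 rose, 4 of 8 against 15.3%. At its high level CHO2 and OPI3 rose, 2 of 8 against 26.5%, and CDS1 fell, 1 of 8 against 22.1%. The median difference of the 8 was 0.57, 0.32, 0.13 and 0.00 in that order, beside 0.04, 0.06, 0.03 and 0.03 over all genes.

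PSD1 had the largest of these rises, 1.44 ± 0.16 or 2.70-fold in the reference at the low level (adjusted p = 3.92e-07). OPI3 rose there by 1.10 ± 0.10 (adjusted p = 1.71e-08), CHO1 by 0.99 ± 0.07 (adjusted p = 3.81e-10), CHO2 by 0.59 ± 0.08 and CDS1 by 0.54 ± 0.11. PSD2 rose by 0.44 ± 0.05 and PGS1 by 0.19 ± 0.05. CRD1 was at 0.14 (95% interval -0.12 to 0.41, adjusted p = 0.388). It was called on these 6 arrays alone (adjusted p = 0.0142), in a fit that called 64.8% of all genes. The methyltransferase genes were the pair called higher under N limitation in all 4 settings. CHO2 rose by 0.59, 0.56, 0.49 and 0.62 (reference low and high, mutant low and high) and OPI3 by 1.10, 0.64, 0.35 and 0.47, the last with an adjusted p of 0.0539 on the 6 arrays alone.

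CDS1 changed sides with the level in the reference, rising by 0.54 at the low level and falling by 0.48 ± 0.11 at the high level (adjusted p = 0.00124). In the mutant it was at 0.00 at the low level (95% interval -0.23 to 0.23) and fell by 0.42 ± 0.11 at the high level (adjusted p = 0.00372). Those falls were -0.34 and -0.27 without the 2 arrays of the largest 3' minus 5' signal, both still called, and in the mutant the adjusted p was 0.0674 on the 6 arrays alone. PSD1 in the mutant rose by 0.45 ± 0.16 at the low level (adjusted p = 0.0399), a call lost without any of its 6 arrays (adjusted p of up to 0.119), and was at -0.01 at the high level. Without the 2 arrays the latter difference was 0.24 (adjusted p = 0.00485). In the reference at the high level PSD1 was at 0.35 with all arrays, and it rose by 0.55 without the 2 arrays (adjusted p = 4.79e-07) and by 0.77 with the covariate (adjusted p = 1.15e-08). CRD1 at the high level rose without the 2 arrays by 0.38 in the reference (adjusted p = 2.32e-06) and by 0.26 in the mutant (adjusted p = 0.000261). CHO1, which rose in the reference at both levels, was at -0.05 and -0.10 in the mutant. PSD2 in the reference at the high level, at 0.14 (adjusted p = 0.0366), lost its call without replicate 3 of the C-limited or replicate 1 of the N-limited group (adjusted p of up to 0.233). It was also lost without the 2 arrays (adjusted p = 0.107), with the covariate (adjusted p = 0.129) and without the arrays of conflicting labels (adjusted p = 0.0525). Quantile normalization (adjusted p = 0.161), median centring (adjusted p = 0.113), the 6 arrays alone (adjusted p = 0.279) and these with the replicate block (adjusted p = 0.416) lost it too.

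**Figure D5:**
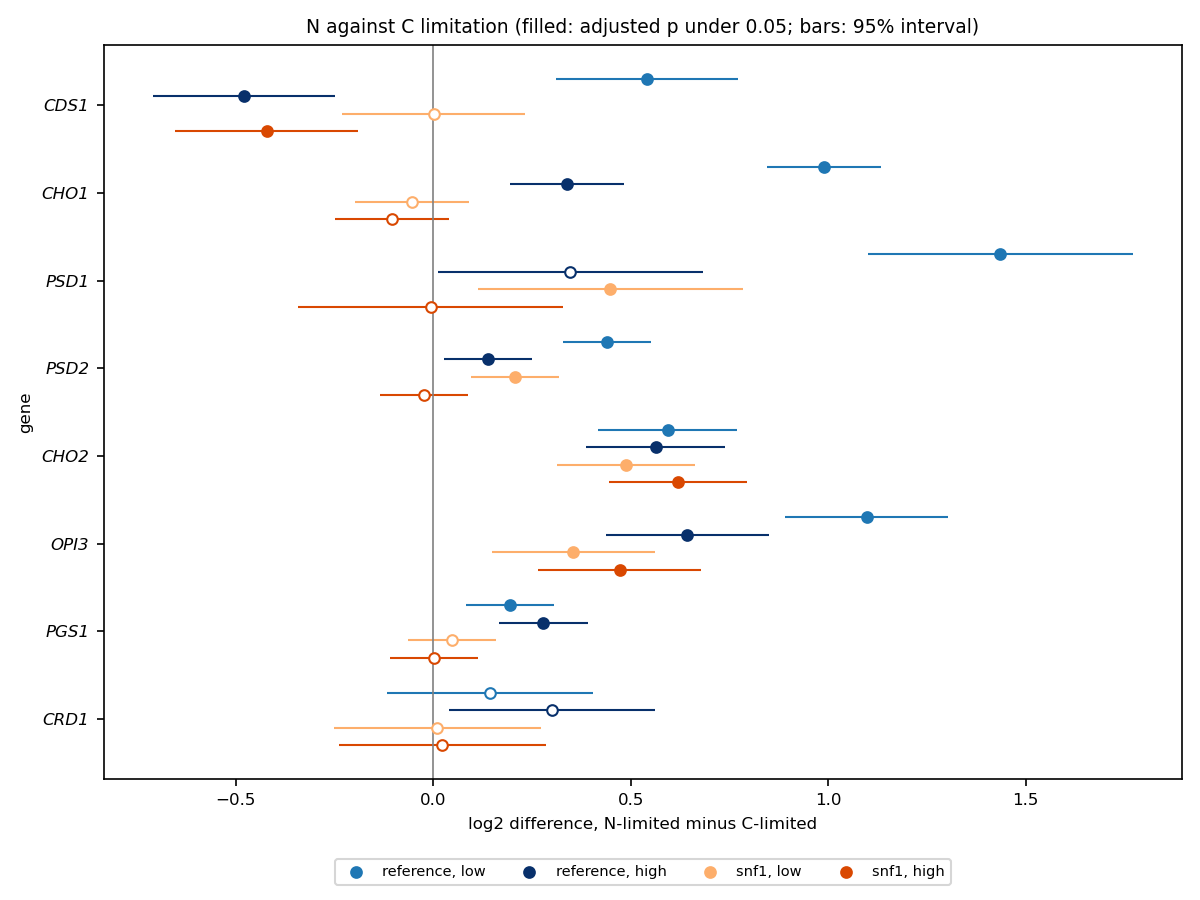
Log2 difference, N-limited minus C-limited (x axis), of each gene (y axis) in the 4 settings of strain and inositol-choline level, with bars for the 95% interval and filled points where the adjusted p was under 0.05. PSD1 in the reference at the low level lies farthest to the right, at 1.44, and CDS1 lies on both sides of 0.

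Whether one factor changed the response to another was tested as a difference of differences. Under C limitation the response to inositol-choline was more negative in the mutant than in the reference for CHO1 (-0.63 ± 0.10, adjusted p = 0.000439), OPI3 (-0.88 ± 0.14, adjusted p = 0.000494), CHO2 (-0.58 ± 0.12, adjusted p = 0.00567) and CDS1 (-0.57 ± 0.16, adjusted p = 0.0457). These are 4 of 8 genes against 2.29% of all genes called in that direction. The call of CDS1 was lost in 19 of the 24 fits that left out 1 array (adjusted p of up to 0.122). PSD1 had a difference of the same size, -0.64 ± 0.23, and was not called with all 24 arrays (adjusted p = 0.156). Other fits called it, among them the 12 arrays compared (adjusted p = 0.00014), those with the replicate block (adjusted p = 0.000579), the fit without the 2 arrays of the largest 3' minus 5' signal (adjusted p = 2.17e-05) and that with the covariate (-0.53, adjusted p = 0.000215). So did leaving out replicate 1 of either N-limited group at the high level (adjusted p = 0.0453 and 0.0246). Under N limitation limma called 0 of 8 genes against 2.07% of all genes. Of the 8, 3 had an unadjusted p under 0.05, beside 9.86% of all genes. Without the 2 arrays CHO2 (-0.45, adjusted p = 0.00296) and OPI3 (-0.38, adjusted p = 0.000866) were called, beside 403 of all 5449 genes.

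In the reference the response to inositol-choline was more negative under N than under C limitation for CDS1 (-1.02 ± 0.16, adjusted p = 0.000437), PSD1 (-1.09 ± 0.23, adjusted p = 0.00771), CHO1 (-0.65 ± 0.10, adjusted p = 0.000401) and PSD2 (-0.30 ± 0.08, adjusted p = 0.0243), 4 of 8 against 2.20% of all genes. OPI3 was at -0.45 and not called (adjusted p = 0.0685), but called without the 2 arrays of the largest 3' minus 5' signal (-0.55, adjusted p = 4.52e-06). In the mutant PSD2 was called, 1 of 8 against 6.07% (-0.23 ± 0.08, adjusted p = 0.0453), and lost in 14 of the 24 fits that left out 1 array (adjusted p of up to 0.115). Without the 2 arrays CDS1 (-0.27, adjusted p = 0.0133) and CRD1 (0.25, adjusted p = 0.0109) were also called in the mutant, and CRD1 in the reference (0.24, adjusted p = 0.0254). Of all 5449 genes 1787 were then called in the mutant and 875 in the reference. The call of PSD2 in the reference was lost in 6 of the 24 fits that left out 1 array (adjusted p of up to 0.0791) and on the 12 arrays compared (adjusted p = 0.128).

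The effect of the deletion differed between the limitations at the low level for CHO1 (-1.04 ± 0.10, adjusted p = 1.22e-07), PSD1 (-0.99 ± 0.23), OPI3 (-0.74 ± 0.14), CDS1 (-0.54 ± 0.16) and PSD2 (-0.23 ± 0.08), 5 of 8 against 10.8% of all genes. Negative values mean a lower mutant-to-reference ratio under N limitation. PSD2 lost this call in 7 of the 24 fits that left out 1 array (adjusted p of up to 0.101). At the high level it differed for CHO1 (-0.44 ± 0.10, adjusted p = 0.00228) and PGS1 (-0.28 ± 0.08, adjusted p = 0.0122), 2 of 8 against 10.6%. On the 12 arrays compared CHO1 was not called there (adjusted p = 0.0521).

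The members resembled one another to different degrees over the 8 group means, which share their arrays and normalization. Pearson's r was 0.96 between CHO1 and PSD1, 0.94 between PSD1 and OPI3 and 0.93 between CHO1 and OPI3, and also between PGS1 and CRD1. It was 0.02 between CDS1 and CHO2, -0.16 between CDS1 and PSD2 and -0.17 between PSD2 and CRD1. Among 5175 genes above the dim level the patterns most like that of CHO1 were those of DAS2 (r = 0.993), PRO3 (0.980), a proline synthesis gene, and ORM1 (0.979), a regulator of sphingolipid synthesis. Most like PSD1 were VMA16 (0.988), a subunit of the vacuolar proton pump, RHO3 (0.981) and again PRO3 (0.981). For OPI3 they were the proteasome gene RPT1 (0.972), RIT1 (0.969) and VMA3 (0.969), for CDS1 SAM35 (0.983), DEF1 (0.983) and SUR1 (0.981), and for CHO2 HO (0.972), NUP49 (0.966) and BUD3 (0.966). The list of PSD2 held MON2 (0.963), SAC1 (0.962), which encodes a phosphoinositide phosphatase, and ITR2 (0.952), an inositol transporter gene. For PGS1 they were RAD10 (0.967), DSK2 (0.956) and SDT1 (0.955), and for CRD1 COF1 (0.990), GPI2 (0.965) and ELF1 (0.952).

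Around the branch, 54 other genes of phospholipid metabolism in 9 lists were counted in the same fits. In the response to inositol-choline 6 fell and 5 rose in the C-limited reference, 17 and 8 in the N-limited reference, 16 and 7 in the C-limited mutant and 18 and 8 in the N-limited mutant. The falls were 11.1%, 31.5%, 29.6% and 33.3% of the 54, beside 6.96%, 14.9%, 13.2% and 17.7% of all genes. Their medians were -0.03, -0.10, -0.14 and -0.06. Inositol supply had 4 of 5 genes lower in both N-limited strains, led by INO1, the inositol-phosphate synthase gene (-3.60 ± 0.16 in the reference and -3.81 ± 0.16 in the mutant). INO1 was lower in the C-limited mutant as well (-4.11 ± 0.16). Its response under C limitation differed between mutant and reference by -4.05 ± 0.22. Choline uptake and the Kennedy pathway, which builds the same lipids from free choline and ethanolamine, had 3 of 7 lower in each setting but the C-limited reference, where limma called 0 of 7 and 0 of 7 had an unadjusted p under 0.05. EPT1, the ethanolamine phosphotransferase gene, fell by 0.65 ± 0.06 in the N-limited mutant and by 0.51 ± 0.06 in the N-limited reference, and CPT1, its choline counterpart, by 0.58 ± 0.07 in the C-limited mutant. Of 5 regulators 2 fell in the N-limited reference, among them INO2 (-0.67 ± 0.06) and OPI1 (-0.64 ± 0.06), and 3 in each mutant setting. Of 4 genes of methyl donor supply 2 fell in both N-limited strains, led by SAH1, which clears the product that inhibits methyltransferases (-0.57 ± 0.08 in the reference and -0.67 ± 0.08 in the mutant). Phospholipid breakdown had 2, 2, 3 and 3 of 7 genes called higher, 0 lower and 5, 5, 4 and 4 not called, beside 7.85%, 16.6%, 10.2% and 19.5% of all genes called higher. An example was the phospholipase B gene PLB2 in the C-limited mutant (0.50 ± 0.06). Of 7 genes of mitochondrial phospholipid handling 2, 3, 4 and 1 fell, UPS2, which encodes a lipid transfer protein, by 1.16 ± 0.21 in the N-limited reference.

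Deletion of SNF1 under C limitation at the low level raised 16 of the 54 and lowered 5, and at the high level 10 and 13. Under N limitation 2 rose and 3 fell at the low and 1 rose and 3 fell at the high level. In that order the rises were 29.6%, 18.5%, 3.70% and 1.85% of the 54, beside 20.2%, 18.0%, 4.72% and 2.17% of all genes. For the falls the shares were 9.26%, 24.1%, 5.56% and 5.56%, beside 14.3%, 14.8%, 5.01% and 1.98%. At the low level under C limitation the Kennedy list had 5 of 7 higher, among them the choline kinase gene CKI1 (0.45 ± 0.06) and ECT1 (0.44 ± 0.06). Under C limitation INO1 was higher in the mutant at the low level (1.41 ± 0.16) and lower at the high level (-2.64 ± 0.16). N limitation raised 20, 17, 9 and 17 of the 54 and lowered 8, 12, 7 and 11 (reference low and high, mutant low and high). The rises were 37.0%, 31.5%, 16.7% and 31.5% of the 54, beside 25.1%, 31.4%, 15.3% and 26.5% of all genes. The falls were 14.8%, 22.2%, 13.0% and 20.4%, beside 19.1%, 20.9%, 15.3% and 22.1%. The Kennedy list held 6, 6, 4 and 6 rises of 7 and 0 falls, with CKI1 at 1.36 ± 0.06 in the reference at the low level. Phosphatidate supply and use was mixed, GPT2, an acyltransferase gene, falling by 0.71 ± 0.09 in the reference at the high level. CLD1, the phospholipase gene of cardiolipin remodelling, fell by 1.68 ± 0.11 in the reference at the low level and by 1.20 ± 0.11 in the mutant.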

How the data were processed

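Expression was measured on 24 Affymetrix yeast arrays, 3 in each of 8 groups. The log2 values were made by the authors with PLIER, a method that summarises probes, per the submitters' processing notes, and used as deposited. The base of the logarithm is not given in the sources used here and was taken as 2. Of 10928 probe sets, 5498 matched 5449 S. cerevisiae genes through the platform annotation; for the 47 genes with several, the probe set of the highest mean was used. Groups followed the titles, also for the 6 arrays whose description names another limitation. One limma model (version 3.58.1, R 4.3.3) of the 8 group means was fitted to all genes and arrays, with Benjamini-Hochberg adjustment over 5449 genes in each of 12 pair comparisons and 6 interactions, after tests on simulated data. The number of arrays limits the precision. The dim level of 5.59 is the 95th percentile of probe sets named for no S. cerevisiae gene.

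The members and lists were chosen with earlier results of these data known. One member stayed in the fit and is not reported here, so counts are over 8. Named genes are those 8 members, SNF1 and DAL5, the 3 genes most correlated with each member, and at most 3 called genes per list and family of comparisons, by adjusted p. Replicate numbers were taken to pair 2 groups where all 3 same-numbered arrays correlated above 0.1 in their deviations from the group means. This held for 6 of 28 pairs of groups, 3 of them compared here: the strains under N limitation at the low level (0.165, 0.313 and 0.405) and the high level (0.901, 0.784 and 0.868), and the limitations in the mutant at the low level (0.173, 0.461 and 0.392). It also held for groups not compared. The N-limited reference at the low level paired with the C-limited mutant at the low level (0.353, 0.526 and 0.491) and the C-limited reference at the high level (0.270, 0.289 and 0.261). What the numbers stand for is not known. Alternatives were quantile normalization, median centring, a filter on dim genes, all probe sets, other moderation, fits of the compared arrays alone, the replicate number as a block, adjustment for the control genes' signal loss towards the 5' end as a covariate, and fits without single arrays, the 2 arrays of the largest such signal or the 6 of conflicting labels. A planned promoter motif search was not run, and sequences were not used here.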

Additional observations from a re-analysis of the deposited data

Results flagged for a closer look

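A difference between settings in the response of a gene, tested by limma as an interaction with n = 3 arrays per group, was called for 16 results. Under C limitation the response to inositol-choline differed between the strains for CDS1 (-0.57), CHO1 (-0.63), CHO2 (-0.58) and OPI3 (-0.88). In the reference that response differed between the limitations for CDS1 (-1.02), CHO1 (-0.65), PSD1 (-1.09) and PSD2 (-0.30), and in the mutant for PSD2 (-0.23). The effect of the deletion differed between the limitations at the low level for CDS1 (-0.54), CHO1 (-1.04), PSD1 (-0.99), PSD2 (-0.23) and OPI3 (-0.74), and at the high level for CHO1 (-0.44) and PGS1 (-0.28). No outlying array was sought within groups, which hold 3 arrays each.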

How the results depend on the processing

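Of 70 calls of members over 18 comparisons, 56 were kept in all 24 fits that left out 1 array, and no difference past the threshold changed direction there. N against C limitation in the mutant at the high level reversed for PSD1, to 0.24 without the 2 arrays of the largest 3' minus 5' signal and to 0.32 with that signal as a covariate. Counts of called members that moved by over 1.5 times are given next, in the order of the report. The cause was not tested. A main count stands in brackets before its alternatives. After an alternative the brackets hold the share of all genes called in that fit, or their number out of 5449. For the response to inositol-choline in the C-limited reference (3 called) the count was 5 without the arrays of conflicting labels (1007). It was 6 with the covariate (45.1%) and 6 without the 2 arrays (48.1%). In the N-limited reference (5) it was 0 with the replicate block on the 6 arrays (0.257%), and in the N-limited mutant (7) 4 on the 6 arrays (13.5%) and 0 with the block (0.184%), for a total with the block over the 4 responses of 12 in place of 23. For snf1 against the reference under C limitation at the high level (1) the count was 5 on the 6 arrays (58.5%), 5 with the block (59.1%) and 5 with the covariate (55.2%). It was 4 without the 2 arrays (56.8%) and 3 without the arrays of conflicting labels (1945). Under N limitation at the low level (2) it was 6 on the 6 arrays (45.9%), 6 with the block (51.0%), where the numbers were taken to pair the arrays, and 4 without the 2 arrays (28.5%). At the high level (2) it was 0 on the 6 arrays (0.0918%), 1 after quantile normalization (219) and 5 with the covariate (14.8%). The total over these 4 (11) was 17 on the arrays compared, 19 with the block on them and 19 with the covariate. For N against C limitation in the reference at the high level (6) the count was 2 with the block (18.9%). In the mutant at the high level (3) it was 1 on the 6 arrays (30.4%), 1 with the block (21.2%), 5 with the covariate (64.0%) and 5 without the 2 arrays (64.4%). For the interaction of strain and level under N limitation (0) it was 1 with the block on 24 arrays (126), 2 with the covariate (466) and 2 without the 2 arrays (403). For limitation and level in the mutant (1) it was 0 after quantile normalization (760), after median centring (818) and with the block (700), 2 with the covariate (1755) and 3 without the 2 arrays (1787). For strain and limitation at the high level (2) it was 1 on the arrays compared (614), 1 with the block (664), 4 with the covariate (2267) and 4 without the 2 arrays (2069). The total over the 6 interactions (16) was 25 without the 2 arrays. Leaving out 1 array gave 2 to 5, 4 to 6, 6 to 8 and 5 to 7 for the responses to inositol-choline (total 19 to 25), and 5 to 6, 1 to 3, 2 to 2 and 1 to 2 for the deletion (total 10 to 13). It gave 7 to 7, 6 to 8, 3 to 4 and 3 to 4 for the limitation (total 19 to 23), and 3 to 5, 0 to 2, 3 to 5, 0 to 2, 4 to 5 and 2 to 3 for the interactions (total 12 to 20). Between the strains under N limitation the block on the 6 arrays left the count at 6 at the low level (51.0%) and took it from 0 to 2 at the high level (3.93%). No member has a second probe set, so no other probe set could stand in for a member. The fit of all probe sets lost 4 calls of members. For CDS1 these were snf1 against the reference under C limitation at the low level (adjusted p = 0.06) and strain by level under C limitation (adjusted p = 0.0784). The others were PSD1 in N against C limitation in the mutant at the low level (adjusted p = 0.083) and CRD1 in the response of the C-limited mutant to inositol-choline (adjusted p = 0.0528). Comparisons with the N-limited mutant could not be made without the arrays of conflicting labels.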
